A study of Rattus norvegicus with 11 samples.

Results

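The response of the adult rat prefrontal cortex to 1 injection of DOI was examined in 7 of the 11 arrays of a study of early-life stress. DOI is an iodinated dimethoxyamphetamine, a hallucinogen that stimulates serotonin 5-HT2 receptors as a partial agonist. The members are all arrays of undisturbed rats, chosen by their labels: 4 rats that received DOI at 8 mg/kg (DOI group) and 3 that received saline (Control group). Both groups came from litters that were never separated from the dam, and the adult rats were killed 2 hours after injection, at postnatal day 60. The other 4 arrays, of maternally separated rats given saline (MS), were left out of the main comparison. Their levels are given beside some probes, chose pairs of probes, and entered an alternative fit. Each array holds the total RNA of 1 rat, labelled with Cy3. The sources used here give no strain, sex or litter. The p-values rest on the spread from rat to rat, and would be too small if rats of a group shared a litter.

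The 5-HT2A receptor is abundant on the pyramidal neurons of the prefrontal cortex, where it couples to phospholipase C and calcium release. Its stimulation by hallucinogens is known to raise, within an hour or so, the transcripts of activity-dependent immediate early genes, many of which encode transcription factors. In tissue of this kind a lower transcript level per cell and fewer cells of the type that makes the transcript cannot be told apart.

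The array carries 15207 probes under custom identifiers, and neither the deposited table nor the RefSeq table pairs any of them with a gene (0 names). Immediate early genes, serotonin receptors and markers of neurons or glia could therefore not be looked up, and the label of the tissue was not checked against markers. Each result below is the level of a probe or a count of probes. A level is log2 of a probe's intensity divided by its array's 75th percentile, so 0 is the 75th percentile and 1 unit is a doubling. Intensities under 0.05 of that percentile were raised to it, a floor of -4.32 on the log2 scale. A total of 3130 probes lay at the floor on all 7 arrays, and the other 12077 were tested. Of these, 9356 were above the floor on all 7 arrays.

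The arrays differed in brightness, with 75th percentiles from 82.7 for DOI replicate 4 to 201 for DOI replicate 1. Between 28.2% and 32.4% of all probes were at the floor on an array. The share was 30.6% ± 1.56 (SD, n = 3) on the Control arrays against 29.5% ± 1.11 (SD, n = 4) on the DOI arrays, a difference of -1.08 percentage points that was within the spread between rats (exact permutation test over 35 arrangements, two-sided, p = 0.343; the smallest p this design allows is 0.0571). Among the 9356 probes never at the floor, levels correlated between DOI arrays at r of 0.978 to 0.989 and between Control arrays at 0.969 to 0.991. The highest value belonged to Control replicates 2 and 3, while Control replicate 1 correlated with them at 0.971 and 0.969, no more closely than with the DOI arrays (0.969 to 0.976). These correlations run across probes, not across independent replicates. The Control replicate 1 array thus stood apart from the other saline arrays, and the counts of probes that passed the threshold or reached 2-fold are given with and without it. Without it the difference in the share at the floor was -0.189 percentage points (exact permutation test, p = 0.8). Its deposited values also had at most 2 decimals in 100% of probes, against 1.09% to 2.22% on the other 6 arrays.

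No probe differed between DOI and saline after adjustment for multiple testing (limma, Benjamini-Hochberg adjusted p under 0.05; 0% of 12077 probes called), and the lowest adjusted p was 0.117. An unadjusted p under 0.05 was found for 1723 probes, 14.3% of those tested, against about 604 at that threshold if no probe differed. Probes measured on the same arrays are not independent, and the excess was not tested. Of the 1723, 1045 had higher and 678 lower levels in DOI. This preponderance of higher levels depended on how arrays were brought to a common scale. With median centring in its place 733 were higher and 935 lower, with quantile normalization 823 were higher and 912 lower, and with the values as deposited 18 were higher and 806 lower. The median difference over all tested probes was 0.04 log2 after scaling by the 75th percentile and -0.30 without scaling.

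For most tested probes the interval of the difference was narrow, in part because of the floor. The median standard error of a DOI minus Control difference was 0.18 log2, and the median half-width of its 95% interval was 0.43. For 9612 probes, 79.6% of those tested, the 95% interval lay wholly between a 2-fold lower and a 2-fold higher level, each interval taken by itself. This count includes probes at the floor on some arrays, where the floor shrinks both the difference and its spread. Their response is not bounded by these intervals. Differences were under 0.5 log2 in either direction for 86.5% of probes. The quartiles of the differences were -0.16 and 0.24 log2, and the 5th and 95th percentiles -0.53 and 0.60. The median SD between rats was 0.21 log2 in DOI (n = 4) and 0.23 in Control (n = 3), and 0.10 in Control without Control replicate 1. Without scaling it was 0.52 in DOI and 0.35 in Control.

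Levels at least 2-fold higher in DOI were found for 122 probes, 1.01% of those tested, and levels at least 2-fold lower for 60 probes, 0.497%. With the other scalings these numbers became 103 and 80 (median centring), 101 and 77 (quantile normalization), and 32 and 359 (no scaling). In 80 of the 122 probes every DOI array lay above every Control array, and in 29 of the 60 every DOI array lay below. Over all tested probes the groups did not overlap for 1048 with higher levels in DOI (8.68%) and 592 with lower levels (4.90%), and these numbers became 680 and 822 with median centring, 827 and 801 with quantile normalization, and 19 and 381 without scaling. Without Control replicate 1 they were 2281 and 1892, where fewer arrays overlap less by construction. With all arrays, 1 of the 35 arrangements of the labels would put every DOI array on a given side. The scatter of differences against level shows that most differences past 4-fold come from probes of low or middle level whose groups overlap.

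**Figure D1:**
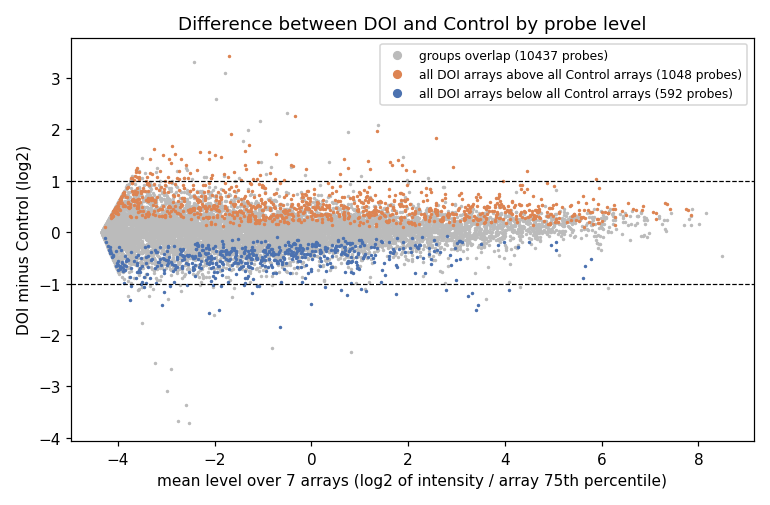
Difference of the mean log2 levels of 4 DOI and 3 Control arrays (vertical axis) against the mean level over the 7 arrays (horizontal axis, log2 of intensity relative to the array's 75th percentile), 1 point per probe, for the 12077 tested probes. Dashed lines mark 2-fold; 1048 probes in orange have all DOI arrays above all Control arrays and 592 in blue have all below, a balance that becomes 680 and 822 with median centring and 19 and 381 without scaling.

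Probes were also compared by brightness. Among the 3646 weakest probes, with a mean level below -3, groups did not overlap for 6.97%. Among the 567 brightest, with a mean level above 4, they did not overlap for 27.9%, of which 149 were higher in DOI and 9 lower, with a median difference of 0.20 log2. This tilt of bright transcripts was 0.15 log2 with median centring (73 higher and 14 lower) and 0.03 log2 with quantile normalization (52 higher and 48 lower), and turned to -0.20 log2 without scaling (1 higher and 8 lower). The share of the brightest without overlap was 15.3% with median centring, 17.6% with quantile normalization and 1.59% without scaling. Among the weakest it was 7.13%, 7.62% and 2.93%. Differences of 2-fold were less frequent among bright probes, with 0.882% of the brightest class against 2.02% of the 4656 probes between levels -3 and 0. The median SD between DOI rats fell along the same axis, from 0.28 log2 in the weakest class to 0.12 in the brightest. Between saline rats it changed less, with 0.21 log2 in the weakest class, 0.26 between levels -3 and 0, and 0.18 in the brightest.

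Some of the 1048 and 592 probes whose groups did not overlap, among 12077 tested, had a whole group at the floor. There were 23 probes at the floor on all 3 Control arrays and above it on all 4 DOI arrays, and 12 probes at the floor on all 4 DOI arrays and above it on all 3 Control arrays. Because one side is a bound, levels of the 23 were at least 1.07-fold to at least 2.38-fold higher in DOI (median 1.41), and those of the 12 at least 1.08-fold to at least 1.67-fold lower (median 1.28). Only 3 of the 23, and 0 of the 12, had a bound of 2-fold or more.

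The rule for naming probes took, among those above the floor on all 7 arrays whose groups did not overlap, the 2 with the largest difference in each direction. None of the 4 passed the adjusted threshold, so their values are given as measured. RN_GT_105867 had the largest difference. Its levels were -3.99, -3.47 and -3.53 on Control replicates 1, 2 and 3, and -1.87, -2.21, 0.03 and 3.08 on DOI replicates 1, 2, 3 and 4. All DOI rats were above all saline rats, and the DOI rats themselves spread over more than the gap between the groups. The Control mean was -3.67 ± 0.29 (SD, n = 3) and the DOI mean -0.24 ± 2.43 (SD, n = 4). They differed by 3.42 log2, or 10.7-fold, with an SE of 1.20 (limma adjusted p = 0.273). It was 2.32 log2 without DOI replicate 4 and 4.08 log2 without DOI replicate 2. On the 4 MS arrays its level lay between -3.48 and -2.50. The probe with the preceding identifier was at the floor on all 4 DOI arrays and on Control replicates 1 and 3.

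The second probe with higher levels, RN_GT_108294, rested on a single rat. Control replicates 1, 2 and 3 had levels of -1.5, -1.56 and -1.83, and DOI replicates 1, 2, 3 and 4 had -1.24, -1.42, -1.02 and 6.18. DOI replicates 1 to 3 were just above the saline rats, whereas DOI replicate 4 stood far above every other array. The difference was 2.26 log2 (SE 1.83; limma adjusted p = 0.606) with that rat and 0.41 log2 without it (limma adjusted p = 0.331).

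RN_GT_103246 had the largest difference towards lower levels among the probes that met the rule. Its levels on Control replicates 1, 2 and 3 were -0.18, 0.92 and 0.46, and on DOI replicates 1, 2, 3 and 4 they were -1.67, -1.49, -1.21 and -1.40. The 4 DOI rats lay close together and clear of the saline rats. The mean was -1.44 ± 0.19 (SD, n = 4) in DOI against 0.40 ± 0.55 (SD, n = 3) in Control, 3.59-fold lower (log2 -1.84, SE 0.26; limma adjusted p = 0.117), and its 95% interval ran from -2.44 to -1.24. It had the lowest unadjusted p (0.000151, limma) of all probes with lower levels in DOI. It passed the threshold without Control replicate 1 (log2 -2.13, limma adjusted p = 0.0462) and with weighted arrays (log2 -2.15, limma adjusted p = 0.0266), and in no other alternative (limma adjusted p from 0.0532 to 0.672). The probes with the preceding and the next identifier differed by 0.17 and -0.62 log2 (limma adjusted p = 0.691 and 0.277). The MS arrays, all from saline-treated rats, spanned levels from -2.59 to 1.13, wider than the gap between DOI and Control.

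RN_GT_103431 stood at 0.02, -1.98 and -1.70 on Control replicates 1, 2 and 3 and at -2.72, -2.97, -2 and -3.51 on DOI replicates 1, 2, 3 and 4. Control replicate 1 was far above the other 2 saline arrays, and DOI replicate 3 reached almost to their level. The difference was -1.58 log2 (SE 0.54; limma adjusted p = 0.267), and -0.96 log2 without Control replicate 1. On the MS arrays RN_GT_103431 lay between -2.54 and -0.56, a range that reached among the DOI levels. The probe with the preceding identifier followed it on each array, with a difference of -1.51 log2 (SE 0.43; limma adjusted p = 0.212), while the one with the next identifier differed by -0.25 log2 (limma adjusted p = 0.544).

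**Figure D2:**
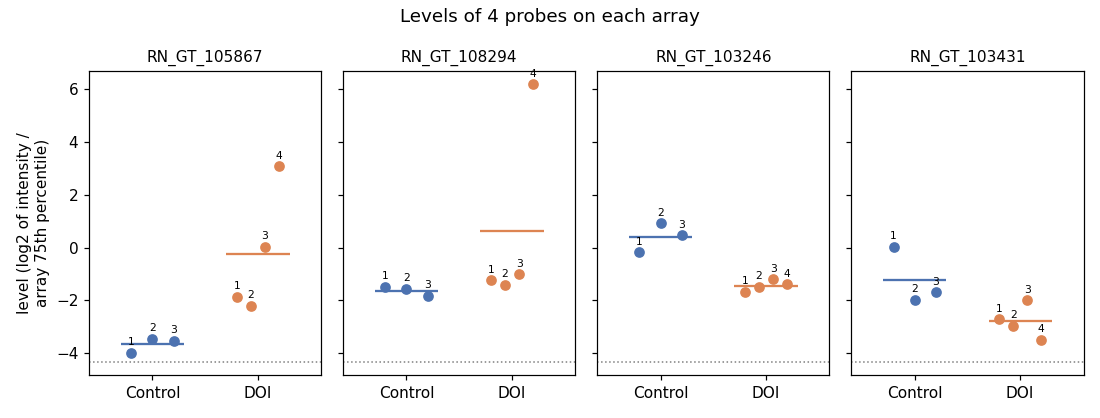
Levels (log2 of intensity relative to the array's 75th percentile) of 4 probes on the 3 Control and 4 DOI arrays, 1 point per rat with its replicate number, with the group mean as a line; the dotted line is the floor at -4.32. DOI replicate 4 carries RN_GT_108294 at 6.18, while the 4 DOI rats lie between -1.67 and -1.21 for RN_GT_103246.

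In 17 of the 12077 tested probes, RN_GT_105867 among them, each of the 4 DOI rats was at least 2-fold above the Control mean. In all 17 the groups did not overlap. These probes were chosen by that difference, so the following values describe them and test nothing. Their median difference was 1.41 log2, from 1.13 to 3.42, and their median Control level was -2.26, with Control means from -4.17 to 2.20. In 4 of the 17 a Control array was at the floor, so the differences of those 4 are lower bounds. Over the 17, the median SD was 0.21 log2 between DOI rats, with a range from 0.12 to 2.43, and 0.42 log2 between Control rats. Limma adjusted p-values lay between 0.117 and 0.273, and 8 of the 17 passed the adjusted threshold without Control replicate 1 and 15 with weighted arrays. In 8 of the 17 the DOI mean was at least 2-fold above each saline array taken singly, and the smallest difference without Control replicate 1 was 1.07 log2. The probe with the lowest unadjusted p of all (2.91e-05, limma; adjusted p = 0.117) was among them. Its levels were 1.15, 1.12 and 0.70 on Control replicates 1, 2 and 3 and 2.21, 2.52, 2.35 and 2.52 on DOI replicates 1, 2, 3 and 4, a difference of 1.41 log2 with a 95% interval from 1.05 to 1.77. The groups were apart, with each DOI rat more than 1 log2 unit above the highest Control array. The MS arrays, also from saline-treated rats, had levels from 0.18 to 1.84. Their highest level thus lay nearer to the DOI rats than any Control array did. The probe with the next identifier, also one of the 17, gave 1.46, 1.08 and 0.85 on the Control arrays and 2.16, 2.64, 2.36 and 2.58 on the DOI arrays. Its levels on the MS arrays ran from 0.38 to 1.69.

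Probes in which each DOI rat was at least 2-fold below the Control mean numbered 15, with a median difference of -2.26 log2, but the groups did not overlap in only 4 of them. In the other 11 a single saline array with a high level, most often Control replicate 2, lifted the Control mean. In 1 of the 15 the DOI mean was at least 2-fold below each saline array taken singly. The higher and lower sets were thus of similar size, but only the higher set had groups that did not overlap throughout. The rule itself favours this contrast. A single high saline array can place a probe in the lower set, while a single high DOI array cannot place one in the higher set. A low saline array is limited by the floor.

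Many of the probes with large differences had a single array that stood apart from the rest. Whether their differences stay past 2-fold without that array was not tested. Among the 122 probes at least 2-fold higher in DOI, 35 had 1 DOI array at least 2-fold above all 6 others, 16 of them DOI replicate 4 and 14 DOI replicate 2, and 14 had 1 Control array at least 2-fold below all 6 others, 11 of them Control replicate 1. Among the 60 that were lower, 24 had 1 Control array at least 2-fold above all 6 others, 12 of them Control replicate 1 and 10 Control replicate 2. At 4-fold or more, 8 probes were higher and 8 lower, and all 16 had 1 such array.

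The counts of probes on which an array stood at least 2-fold apart from all 6 others differed between rats. DOI replicate 2 was above the others on 138 probes and below on 9, and DOI replicate 4 was above on 70 and below on 16. DOI replicates 1 and 3 were above on 31 and 41 and below on 5 and 1. Control replicate 1 was above on 106 and below on 122, whereas Control replicate 2 was above on 40 and below on 3 and Control replicate 3 above on 11 and below on 6. Control replicate 1 was thus the sole array with many probes far below the rest. The largest excess over the highest of the 6 others was 4680-fold on DOI replicate 4, at a level of 8.26. It was at least 2050-fold on Control replicate 2, at a level of 6.68, and at least 20.2-fold on DOI replicate 2, where the 6 other arrays were at the floor in both cases. On DOI replicate 2, 52 probes were at least 4-fold above the others, and on 33 of these all 6 other arrays were at the floor.

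**Figure D3:**
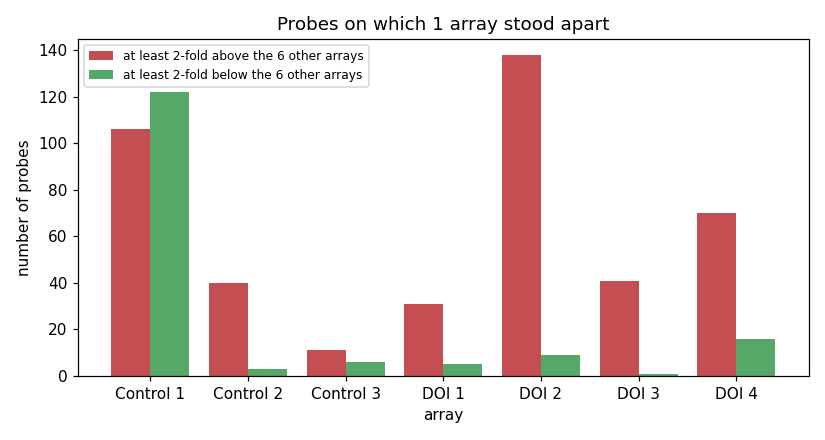
Number of probes (vertical axis) on which 1 array was at least 2-fold above (red) or below (green) every one of the 6 other arrays, for each array (horizontal axis). DOI replicate 2 has 138 probes above and Control replicate 1 has 122 below.

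Probes with consecutive identifiers often had nearly equal levels. Of 5942 pairs of consecutive probes above the floor on all 4 MS arrays, 1131 (19.0%) had levels within 0.5 log2 of each other on each MS array, against 4.02% of pairs with identifiers 2 apart and 2.73% of pairs 50 apart. The sources used here do not say whether the probes of such a pair report the same transcript. The MS arrays, which chose the pairs, do not enter the DOI minus Control differences of the pairs. Within the 1131 pairs the DOI minus Control difference of one probe correlated with that of the other at r = 0.81 (Spearman rho 0.79), and the sign was the same in 943 pairs (83.4%). The correlation is across pairs measured on the same 7 arrays and has no test. For the pairs 2 apart chosen in the same way it was 0.37, with the same sign in 62.6%. For pairs 50 apart it was 0.16, with the same sign in 59.3%. Neighbouring pairs can share a probe.

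The gap between the 2 differences of a pair had a median of 0.08 log2, while the differences themselves had a median size of 0.19. At least 1 probe was 2-fold apart in 16 pairs, and both were, in the same direction, in 8 pairs, 4 higher in DOI and 4 lower. Groups did not overlap with higher levels in DOI for at least 1 probe of 198 pairs and for both probes of 91 (46.0%). With lower levels these numbers were 96 and 31 (32.3%). The levels that set 1 array apart were shared by both probes unevenly. Control replicate 1 was at least 2-fold below all other arrays for 1 or both probes of 14 pairs and for both of 10, and above for 18 and 10. On the 4 DOI arrays together 8 pairs had a probe at least 2-fold above all others, 2 on replicate 1, 3 on replicate 2, 0 on replicate 3 and 3 on replicate 4, and both probes were above in 1, on replicate 4.

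**Figure D4:**
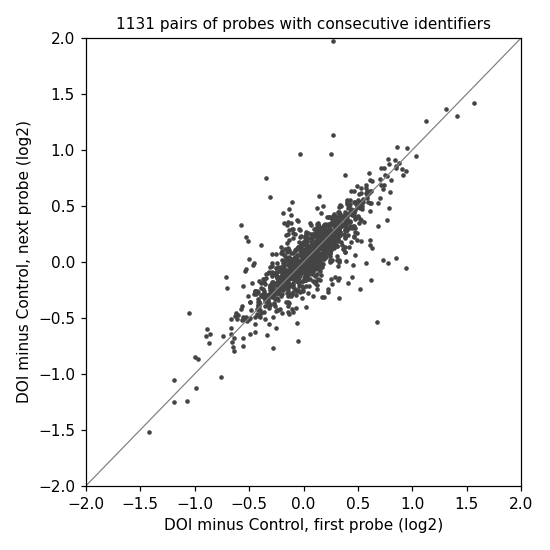
DOI minus Control difference (log2) of the first probe (horizontal axis) and the next probe (vertical axis) of 1131 pairs with consecutive identifiers whose levels were within 0.5 log2 on each MS array; the line marks equal differences. Most pairs lie along the line (r = 0.81), and points far from both the line and the origin are pairs whose probes differed unequally or in opposite directions.

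The comparison turned on which saline rat was kept. Without Control replicate 1, 60 probes passed the adjusted threshold (limma adjusted p under 0.05), 21 higher in DOI by a median of 1.07 log2 and 39 lower by a median of -1.07, and 287 were at least 2-fold apart, 133 higher and 154 lower. The median SD between saline rats was then 0.10 log2 over 2 arrays. With Control replicate 1 as the only saline array, assumed to vary like the DOI rats, 79 passed, 42 higher and 37 lower. No probe passed without Control replicate 2 or 3 or any single DOI array (lowest adjusted p 0.187 to 0.326), nor without both Control replicate 1 and DOI replicate 4. When arrays were weighted by how closely they followed their group mean, 953 probes passed, 513 higher and 440 lower, and Control replicate 1 had a weight of 0.24 against 2.66 and 1.5 for Control replicates 2 and 3. Of the 60 probes, 58 were among the 953. The weights come from the same values and give Control replicate 1 little influence, so this overlap is no independent support.

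These 60 probes were 0.5% of the 12008 tested without Control replicate 1. For 27 of them the groups did not overlap with all 3 saline arrays included. Control replicate 1, left out of that fit, lay on the DOI side of Control replicates 2 and 3 in 54 of the 60 (90%). In 18 it lay within the range of the DOI rats. The 60 were chosen by how far Control replicates 2 and 3 lay from DOI. That choice by itself favours such positions of another saline array. The same share over all tested probes was not computed, so these counts do not test whether Control replicate 1 resembles the DOI rats. The labels give no slide, day or litter that would separate Control replicate 1 from the others.

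**Figure D5:**
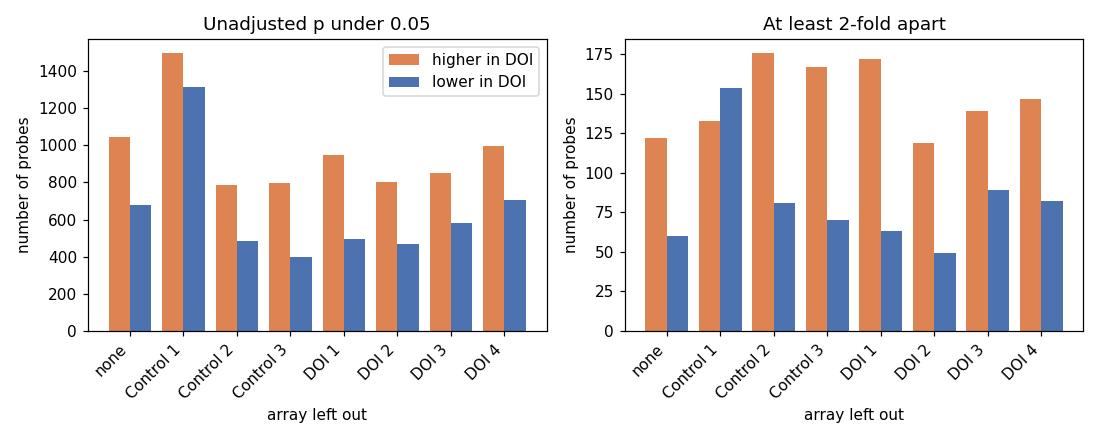
Number of probes (vertical axes) with a limma unadjusted p under 0.05 (left) and at least 2-fold apart (right), higher (orange) or lower (blue) in DOI, with all 7 arrays and with each array left out (horizontal axis). Lower probes exceed higher ones in the right panel only when Control replicate 1 is left out, 154 against 133.

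Set against each saline rat alone, the mean of the 4 DOI rats was at least 2-fold higher for 490 probes and lower for 244 with Control replicate 1. With Control replicate 2 these numbers were 148 and 184, and with Control replicate 3 they were 210 and 232. The excess of higher over lower probes at 2-fold was therefore present against Control replicate 1 alone and absent against the other 2 saline rats. Taken rat by rat against the Control mean, DOI replicate 1 was at least 2-fold higher on 196 probes and lower on 199, replicate 2 on 338 and 225, replicate 3 on 332 and 60, and replicate 4 on 287 and 157. Of the 182 probes whose group means were 2-fold apart, 32 were past 2-fold in all 4 DOI rats, 59 in 3, 65 in 2 and 26 in 1.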

How the data were processed

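Intensity values are those the authors deposited: per the labels, 1-colour Agilent arrays were read with Feature Extraction 9.1 and normalized by a linear per-array algorithm, whose formula, like any background subtraction or spot flags, is not given in the sources used here. All values were above 0 on a linear scale. After division of each array by the 75th percentile of its 15207 probes, values under 0.05 were set to 0.05 and log2 was taken. Probes at this floor on all 7 arrays were left out. DOI and Control were compared with limma 3.58.1 (lmFit and eBayes, R 4.3.3) on the 7 arrays, two-sided, with Benjamini-Hochberg adjustment over 12077 probes (5 residual and 2.25 prior degrees of freedom), tested on simulated data. The number of arrays limits the precision. Named probes are the 2 largest differences per direction among probes above the floor on all 7 arrays whose groups do not overlap. The comparison, tests and alternatives were chosen with earlier results of these data known; pairs of consecutive probes, and the counts by single array, were added after the data were seen. The alternatives changed the scaling, the floor, the filter, the variance estimate, the array weights, the arrays in the fit, the block or the threshold; leaving out Control replicate 1 with DOI replicate 4, and keeping Control replicate 1 as the only saline array, were chosen after seeing the data. Python 3.11.15 with matplotlib 3.10.9 drew the figures.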

Additional observations from a re-analysis of the deposited data

Results flagged for a closer look

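In 1 of 11 values tested over the 4 DOI rats, a single rat lay farther from the others than Dixon's limit allows. Chance gives about 1 in 20 for values not chosen by their size, a rate that does not hold here, since the probe was named for its large mean difference. The level of RN_GT_108294 on the DOI replicate 4 array was 6.18, and the gap to the next DOI array was 0.947 of the group's whole range, past that limit. The 2 tested probes beside it by identifier had levels of -0.78 and -4.32 on that array, against -1.34 to -1.07 and -4.32 to -4.31 on the other 3 DOI arrays. On the MS arrays the level of RN_GT_108294 lay between -1.62 and -0.93.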

How the results depend on the processing

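The absence of adjusted calls held under every alternative run except 4: 2 probes passed with no filter on dim probes, 953 with array weights, 79 with Control replicate 1 as the only Control array, and from 0 to 60 with 1 array left out, the 60 without Control replicate 1. The number with an unadjusted p under 0.05 ranged from 1191 to 2812 with 1 array left out, and was 824 without scaling, 3500 with array weights and 3080 without both Control replicate 1 and DOI replicate 4. Probes at least 2-fold apart numbered 168 to 287 with 1 array left out, 391 without scaling, 121 with a floor of 0.1, 461 with no floor, 121 among probes above the floor on all 7 arrays, 734 against Control replicate 1 alone, 362 without both arrays and 1117 at 1.5-fold. Groups did not overlap for 400 probes without scaling, 1945 to 4173 with 1 array left out, 5923 against Control replicate 1 alone and 5254 without both arrays; fewer arrays overlap less by construction. The difference in the share at the floor turned from -1.08 to 3.006 percentage points without scaling and 0.002 with quantile normalization. The median SD was 0.35 log2 in Control and 0.52 in DOI without scaling, and in Control 0.10 without both arrays and 0.10 to 0.23 with 1 array left out. The cause of the other changes was not tested. Control and DOI share the replicate numbers 1 to 3, and the labels give nothing that would say whether these numbers pair the rats. Deviations of same-numbered arrays correlated at 0.19, 0.00 and 0.16. These values have no test and cannot decide it. With a replicate block 1757 probes had an unadjusted p under 0.05 and 0 were called. DOI replicate 4 has no Control array of its number, so it adds nothing to the difference in that fit. Dim probes are limited by the floor, and the 7 arrays by the spread between 3 saline rats.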
